A study of Mus musculus with 8 samples.

Results

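The blood-retinal barrier genes examined here were Cldn5, Ocln, Tjp1, Cdh5, Mfsd2a, Slc2a1, Plvap and Pecam1. They were chosen by name, by a rule that uses no measured value, though with earlier results of these data known, and every array probe whose transcript accession matched 1 of them was read. These 8 of the 22911 named genes on the array were represented by 9 of its 56605 probes, since Tjp1 had 2 probes. Gene expression had been measured by one-color Agilent microarrays in whole retinas of aged mice, to compare homozygous Mrp4 knockout (Mrp4-null) mice with wild-type (WT) mice, with 4 samples in each group and 1 array per sample. Mrp4, encoded by Abcc4, is a membrane pump that exports drugs and endogenous substrates from cells. Both groups were 46 to 55 weeks old per the labels with no treatment named, and the methods give a C57BL/6J background for the knockout line. The methods name tissue from 3 mice, and it is not clear whether each sample pooled 3 mice, so the p-values below measure only the spread between these samples.

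The inner blood-retinal barrier is formed by the endothelial cells of retinal capillaries, which are sealed to each other by tight junctions, and the outer barrier by the retinal pigment epithelium. Claudins and occludin are the membrane proteins of tight junctions, and zonula occludens proteins tie them to the actin cytoskeleton. Barrier endothelium also limits transport through vesicles and takes up glucose and lipids through dedicated carriers, while the endothelium of leaky vessels carries fenestrae and vesicles closed by diaphragms. A whole retina holds few endothelial cells among many neurons, and in such bulk samples fewer cells of a type cannot be told apart from less RNA per cell.

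RefSeq promoter sequences of GRCm38.p6 were matched by symbol for 5 of the 8 genes, Cldn5, Ocln, Tjp1, Mfsd2a and Slc2a1. They are shown because, as described below, Ocln, Tjp1 and Slc2a1 varied together over the arrays while Cldn5 and Mfsd2a did not. Each sequence is the 250 bases upstream of the transcription start, 5′ to 3′ on the strand of the gene. Capitals mark the GC box GGGCGG on either strand (CCGCCC where it lies on the opposite strand) and the core of the hypoxia response element, ACGTG. The windows are chr16:18776597-18776846 (plus strand) for Cldn5, chr13:100552719-100552968 (minus strand) for Ocln, chr7:65371245-65371494 (minus strand) for Tjp1, chr4:122961189-122961438 (minus strand) for Mfsd2a and chr4:119108495-119108744 (plus strand) for Slc2a1.
Cldn5: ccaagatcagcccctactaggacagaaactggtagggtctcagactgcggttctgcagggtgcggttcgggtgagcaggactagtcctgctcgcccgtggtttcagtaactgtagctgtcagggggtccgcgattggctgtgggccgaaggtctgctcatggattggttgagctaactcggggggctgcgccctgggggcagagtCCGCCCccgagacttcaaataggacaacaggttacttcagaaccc
Ocln: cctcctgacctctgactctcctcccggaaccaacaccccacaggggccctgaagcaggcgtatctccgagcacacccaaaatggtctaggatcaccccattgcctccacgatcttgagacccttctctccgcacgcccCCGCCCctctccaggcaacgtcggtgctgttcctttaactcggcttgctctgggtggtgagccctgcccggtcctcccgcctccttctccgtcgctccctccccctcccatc
Tjp1: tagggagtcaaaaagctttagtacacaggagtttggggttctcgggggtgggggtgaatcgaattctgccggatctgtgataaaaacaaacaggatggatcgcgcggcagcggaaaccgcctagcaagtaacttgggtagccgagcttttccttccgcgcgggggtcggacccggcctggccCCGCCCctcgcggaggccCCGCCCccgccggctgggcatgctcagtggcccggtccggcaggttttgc
Slc2a1: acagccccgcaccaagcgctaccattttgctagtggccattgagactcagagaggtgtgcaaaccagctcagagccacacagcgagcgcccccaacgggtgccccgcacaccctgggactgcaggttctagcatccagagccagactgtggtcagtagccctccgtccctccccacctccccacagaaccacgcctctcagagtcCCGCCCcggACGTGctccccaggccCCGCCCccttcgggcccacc
Mfsd2a: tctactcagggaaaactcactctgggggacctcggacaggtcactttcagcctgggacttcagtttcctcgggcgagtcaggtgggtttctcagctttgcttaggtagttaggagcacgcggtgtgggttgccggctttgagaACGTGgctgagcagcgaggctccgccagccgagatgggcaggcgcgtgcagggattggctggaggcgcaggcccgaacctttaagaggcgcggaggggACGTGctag

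The Tjp1 and Slc2a1 windows each held 2 GC boxes, the Cldn5 and Ocln windows held 1 each, and the Mfsd2a window held none. ACGTG occurred at 2 positions in the Mfsd2a window and at 1 position in the Slc2a1 window. Over all 32851 promoters of the table, 32.74% held a GC box and 16.57% held ACGTG in the same 250 bases, both strands searched. The ETS-type sequence CNGGAAG, found in 26.58% of all promoters, and the TATA box TATAAA, found in 12.37%, were in none of the 5 windows. The G and C content was between 59.6% for Cldn5 and 66.4% for Slc2a1, against a median of 52.4% over all promoters. The motifs were chosen after the array values had been seen, overlaps between motifs were not excluded, and a match is a description of the letters only. Ocln has another start in the table, downstream of the first, whose window also held 1 GC box.

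Abcc4, the gene that the knockout targets, was read first as a check of the labels. The normalized log2 signal of its probe was 10.84, 10.71, 10.64 and 10.80 on the 4 Mrp4-null-labelled arrays and 6.62, 7.13, 6.54 and 7.02 on the WT arrays. The signal was therefore higher on every Mrp4-null-labelled array, by 3.92 on the log2 scale (SE 0.14, limma adjusted p = 1.4e-05). A loss of the transcript would have given the opposite direction. The study also lists Abcc4 first among the upregulated probes of its knockout retinas. It is not known here whether the probe lies in the part of the gene that was deleted. This reading therefore cannot decide whether the labels are right. The arrays are named by their labels throughout, and each direction below is that of the labels.

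All 8 arrays lay on 1 slide with 1 scan time, the Mrp4-null-labelled arrays in its row 2 and the WT arrays in row 1, so that slide row and genotype cannot be told apart. Between 66.0% and 69.9% of probes were well above background on each array. The 75th percentile of the processed signal was 497 on Mrp4-null array 2 and 514 on WT array 3, and between 566 and 786 on the other 6 arrays. These 2 arrays also had the lowest scores on the first principal component of the normalized signals, −60.7 and −35.7, with the other scores between −10.8 and 37.4. Xist was detected above background on WT arrays 1 and 2 and all the Mrp4-null-labelled arrays, and Y-linked genes were on WT arrays 2, 3 and 4 only, so that the sexes were not balanced and WT array 2 carried both signals. Among the WT arrays only WT array 1 lacked Y-linked signal, as every Mrp4-null-labelled array did. A fit with that signal as a covariate therefore compares the groups mainly through WT array 1. With 4 arrays a group, precision was limited throughout.

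None of the 9 probes of the 8 barrier genes differed between the groups by limma, where a call needed an adjusted p under 0.05 and a 1.5-fold change. By the same rule 0.545% of the 37085 probes retained for testing were called, of which 0.256% were higher and 0.289% lower on the Mrp4-null-labelled arrays. The local pooled error test of the study's methods, run on the same values, also called 0 of the 9, against 0.626% of all probes, and gave none of them an unadjusted p under 0.05, against 2.89%. At an unadjusted p under 0.05 limma found 1 of the 9, Cldn5, against 6.46% of all probes. For no barrier probe did the groups separate without overlap, against 4.79% of all probes. Mean signals were higher on the Mrp4-null-labelled arrays for 4 of the 9 probes, against 46.8% of all probes, and the median log2 fold change was −0.04 over the 9 probes and −0.01 over all probes. All 9 probes passed the filter on dim probes, and 8 of them were well above background on every array.

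Cldn5 encodes claudin-5, the claudin that predominates in the tight junctions of endothelium in the brain and retina. Its log2 signal was 9.32, 9.35, 9.43 and 9.23 on the Mrp4-null-labelled arrays and 9.59, 9.54, 9.68 and 9.40 on the WT arrays. The lowest WT array, WT 4, lay just below the highest Mrp4-null-labelled array, Mrp4-null 3, and the groups otherwise did not overlap. The means were 9.33 ± 0.08 and 9.55 ± 0.12 (SD, n = 4 each). The fitted difference was −0.22 on the log2 scale (SE 0.09), a fold of 0.858 with a 95% interval from 0.748 to 0.985. The unadjusted limma p of 0.0334 became 0.679 after adjustment over all probes, so the difference did not pass. Over the settings tried, the limma adjusted p ranged from 0.234 to 1, and the difference kept its sign.

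Ocln encodes occludin, a membrane protein of tight junction strands in endothelium and epithelium. The log2 signal of its probe was 5.44, 3.77, 4.65 and 5.73 on the Mrp4-null-labelled arrays and 3.87, 5.51, 4.10 and 5.22 on the WT arrays. The values of both groups covered nearly the same range, and Mrp4-null array 2 was the only array on which the probe was not well above background. The fitted difference was 0.23 (SE 0.50, limma adjusted p = 1.00), and its 95% interval, from −0.92 to 1.37, included changes of over 1.5-fold in both directions. The spread within groups, an SD of 0.85, was wider than that of 99.6% of all probes. The difference turned to −0.10 without Mrp4-null array 4 and to −0.03 without WT array 1, so no direction can be given for Ocln.

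Tjp1 encodes ZO-1, the scaffold protein that links claudins and occludin to actin, and its 2 probes were kept apart. The first, A_51_P390739, gave 9.22, 7.48, 8.60 and 9.38 on the Mrp4-null-labelled arrays and 8.63, 9.39, 8.26 and 9.10 on the WT arrays. The second, A_55_P2034998, gave 11.38, 10.94, 11.33 and 11.62 on the Mrp4-null-labelled arrays and 11.37, 11.52, 11.20 and 11.51 on the WT arrays. Both probes were lowest on Mrp4-null array 2 and next lowest on WT array 3, and the groups overlapped over most of their range. The differences were −0.18 (SE 0.42) for the first and −0.08 (SE 0.15) for the second, each with a limma adjusted p of 1.00. Their 95% intervals ran from −1.14 to 0.78 and from −0.42 to 0.25, so that the second probe set the narrower limit on a change in Tjp1. Without Mrp4-null array 2 the differences were 0.22 and 0.040, and without WT array 2 that of the first probe was 0.0042, so neither probe gave a settled sign. The first probe had a within-group SD of 0.70, above that of 99.0% of all probes, and the second one of 0.22, above that of 60.8%.

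Cdh5 encodes VE-cadherin, the cadherin of endothelial adherens junctions. The Cdh5 signal was 6.48, 5.11, 6.19 and 6.63 on the Mrp4-null-labelled arrays and 6.29, 6.80, 6.15 and 6.60 on the WT arrays. Mrp4-null array 2 lay over 1 log2 unit below every other array, and the remaining 7 arrays lay between 6.15 and 6.80. The difference was −0.36 (SE 0.32, limma adjusted p = 1.00; 95% interval −1.08 to 0.37), the largest in size among the 9 probes. It shrank to −0.03 without Mrp4-null array 2.

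Mfsd2a encodes a transporter of lysophosphatidylcholine lipids that also restrains vesicle transport in barrier endothelium. Its log2 signal was 7.62, 7.39, 7.43 and 7.37 on the Mrp4-null-labelled arrays and 7.27, 7.31, 7.37 and 7.52 on the WT arrays. The groups overlapped, with the highest value on Mrp4-null array 1 and the lowest on WT array 1. The difference was 0.09 (SE 0.09, limma adjusted p = 1.00), and the 95% interval, from −0.12 to 0.30, lay within 1.5-fold either way. It was between 0.031, without Mrp4-null array 1, and 0.14, without WT array 4, when 1 array was left out, 0.026 after normexp background correction and 0.20 with the Y-linked signal as a covariate.

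Slc2a1 encodes GLUT1, the glucose carrier of barrier endothelium and of the pigment epithelium. Before normalization its processed signal was 23588, 9833, 16959 and 21656 on the Mrp4-null-labelled arrays and 15741, 24109, 12397 and 18734 on the WT arrays. On the normalized log2 scale these became 14.32, 13.61, 14.01 and 14.27 against 13.90, 14.30, 13.86 and 14.32. Mrp4-null array 2 and WT array 3 were again the lowest, and the groups overlapped. The difference was −0.04 (SE 0.18, limma adjusted p = 1.00; 95% interval −0.46 to 0.37), and it became 0.10 without Mrp4-null array 2, 0.025 without WT array 2 and 0.032 without WT array 4, so it had no settled sign.

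Plvap encodes the protein of the diaphragms that close fenestrae and vesicles, and it is a marker of leaky endothelium. The Plvap signal on the same scale was 9.37, 9.47, 9.38 and 9.21 on the Mrp4-null-labelled arrays and 9.26, 9.33, 9.36 and 9.20 on the WT arrays. The difference was 0.07 (SE 0.08, limma adjusted p = 1.00), with a 95% interval from −0.11 to 0.26, and ranged from 0.038, without Mrp4-null array 2, to 0.12, without Mrp4-null array 4. Its within-group SD of 0.09 was the smallest of the 9 probes.

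Pecam1 encodes CD31, an adhesion molecule at the contacts between endothelial cells. The Pecam1 signal was 6.80, 6.65, 6.85 and 6.90 on the Mrp4-null-labelled arrays and 6.61, 6.69, 6.84 and 6.26 on the WT arrays. The groups overlapped, and WT array 4 was the lowest. The difference was 0.20 (SE 0.13, limma adjusted p = 0.998; 95% interval −0.09 to 0.49). It fell to 0.087 without WT array 4. Without Mrp4-null array 2 and WT array 3 it was 0.33, with an unadjusted limma p of 0.0377 and an adjusted p of 0.605.

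**Figure D1:**
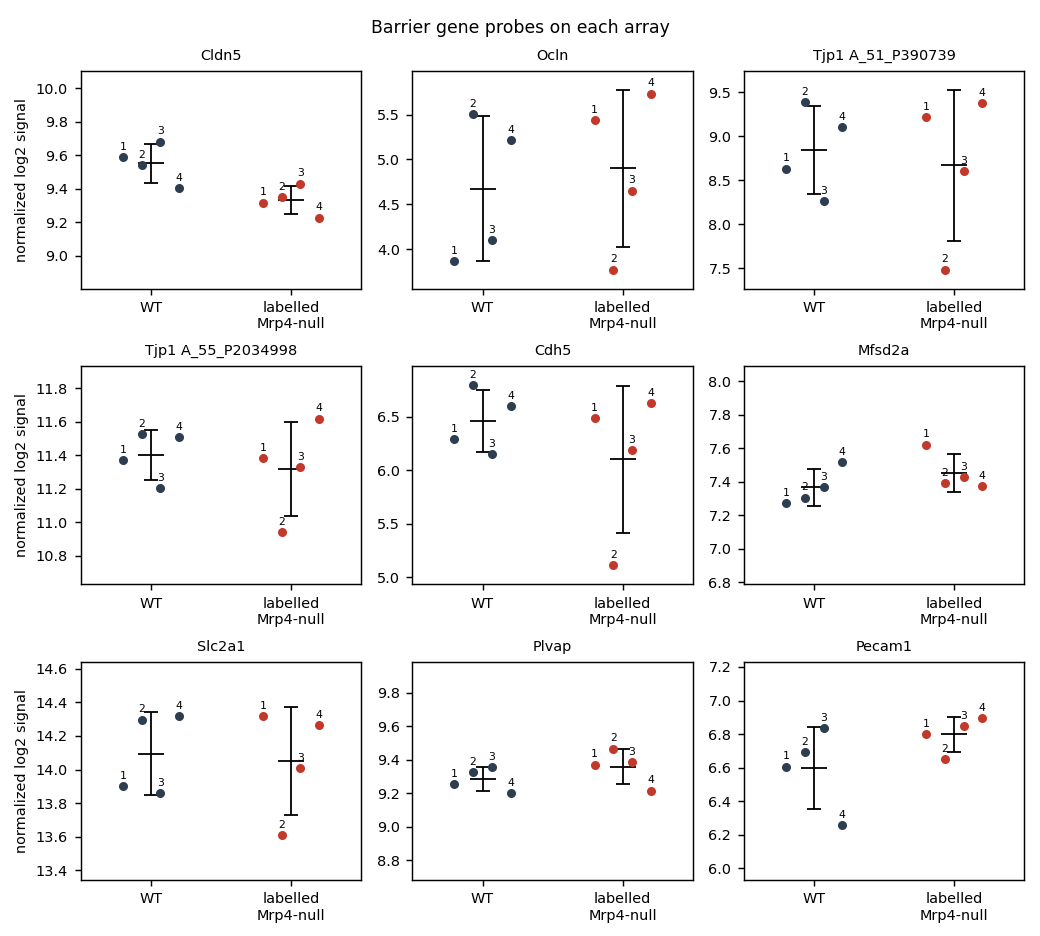
Normalized log2 signal (vertical axis, its range set for each panel) of the 9 barrier gene probes on the 4 WT arrays and the 4 Mrp4-null-labelled arrays; points are arrays with their number, and the bars give the mean and SD (n = 4). The groups overlap in every panel, and Mrp4-null array 2 is lowest for Ocln, both Tjp1 probes, Cdh5 and Slc2a1.

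The 95% interval of the difference lay within 1.5-fold either way for 6 of the 9 probes, those of Cldn5, Mfsd2a, Slc2a1, Plvap and Pecam1 and the second Tjp1 probe. Of all retained probes 77.2% had such an interval. For Ocln and the first Tjp1 probe the interval did not exclude a change of 1.5-fold in either direction. For Cdh5 it did not exclude one of 1.5-fold downward, while its upper end lay at a fold of 1.29. A p that misses the threshold does not show that a gene was equal between the groups.

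**Figure D2:**
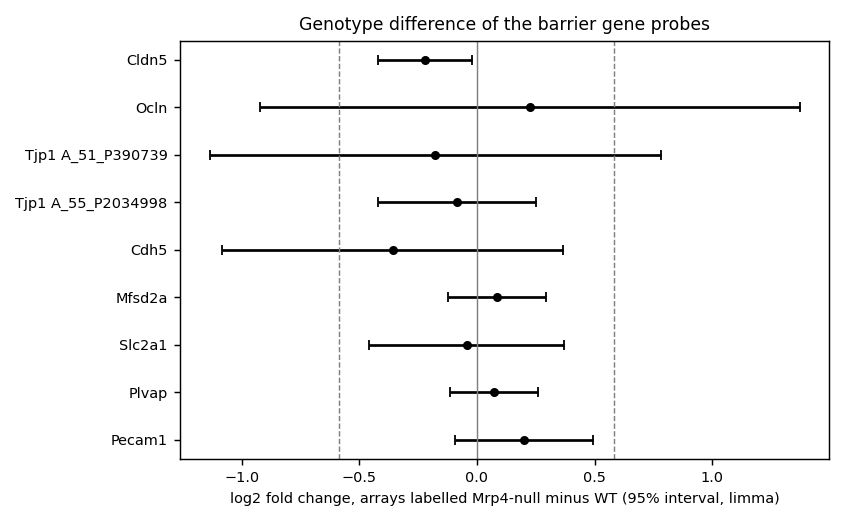
Fitted log2 fold change (horizontal axis, Mrp4-null-labelled arrays minus WT, limma) of each barrier gene probe, with its 95% interval as bars; dashed lines mark 1.5-fold either way. The Cldn5 interval ends at −0.02, all the others include 0, and those of Ocln, Cdh5 and the first Tjp1 probe pass a dashed line.

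The probes differed in how they varied over the arrays, whatever the group. Ocln, both Tjp1 probes, Cdh5 and Slc2a1 varied together, with Pearson r between 0.77 and 0.96 for every pair of these 5 probes over the 8 arrays. All 5 had their lowest value on Mrp4-null array 2, and 4 of them, all but Ocln, had the next lowest on WT array 3. These correlations are a description over 8 arrays that share a slide, a scan time and a normalization. Cldn5 did not follow them, with r from −0.52 with Ocln to 0.03 with Cdh5. Plvap ran opposite to them, with r from −0.83 with the second Tjp1 probe to −0.47 with Ocln. Mfsd2a and Pecam1 had r between −0.13 and 0.42 with those 5 probes. Cldn5 and Mfsd2a, both marks of barrier endothelium, had an r of −0.51 with each other, and Pecam1 and Cdh5, both expressed by endothelium at large, one of −0.04.

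**Figure D3:**
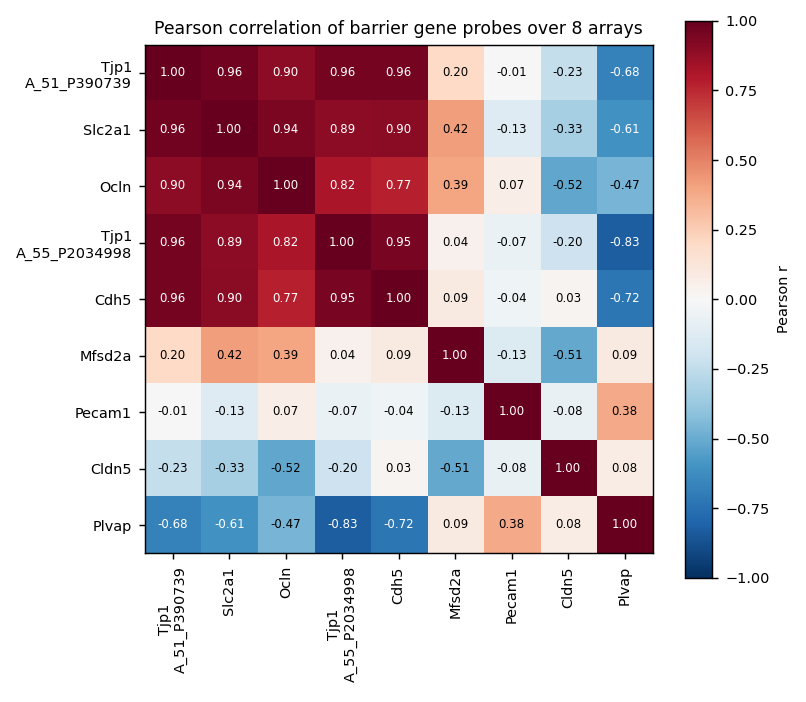
Pearson r of the normalized log2 signal over the 8 arrays for each pair of barrier gene probes (color scale from −1 to 1, the value printed in each cell). The upper left block of Tjp1, Slc2a1, Ocln and Cdh5 holds values from 0.77 to 0.96, and Plvap is negative with all 5 of these probes.

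The same 5 probes followed the first principal component of the retained probes, which held 45.7% of their variance. Their r with its score was 0.99 and 0.93 for the Tjp1 probes, 0.96 for Slc2a1, 0.93 for Ocln and 0.90 for Cdh5. It was 0.26 for Mfsd2a, 0.02 for Pecam1, −0.36 for Cldn5 and −0.62 for Plvap. An r above 0.8 was found for 5 of the 9 barrier probes and for 16.7% of all retained probes, so that most probes with such an r belonged to other genes. The component did not separate the groups, since the 4 Mrp4-null-labelled arrays scored −60.7, −10.8, 31.1 and 37.4 and the WT arrays −35.7, −10.8, 15.3 and 34.1. The 2 arrays with the lowest 75th percentiles of signal had the lowest scores, while WT array 4, with the next lowest percentile of 566, scored 15.3. The part of signal strength or RNA quality in this component was not tested.

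Taking 1 probe per gene, 5 of the 28 pairs of barrier genes had an r above 0.8, a share of 17.9%. This compares with 5.92% of all pairs of named genes with a retained probe measured on every array. Without Mrp4-null array 2 and WT array 3 it was 3 of the 28 pairs, 10.7%, against 6.76% of all pairs on those 6 arrays.

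**Figure D4:**
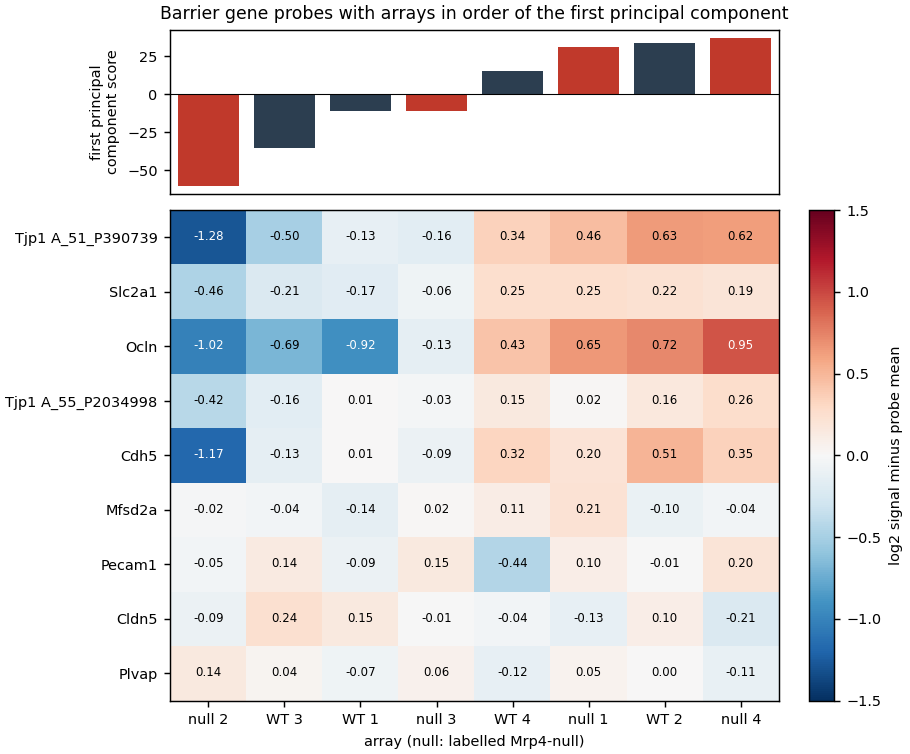
Upper panel: score of each array on the first principal component of all retained probes (red, labelled Mrp4-null; dark blue, WT); lower panel: normalized log2 signal of each barrier gene probe minus its mean over the 8 arrays (color scale and printed values), with arrays ordered by the score and probes by their r with it. The first 5 rows run from low values on Mrp4-null array 2 to high values on Mrp4-null array 4, and the last 4 rows do not.

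The genes most like each barrier gene over the 8 arrays were named by Pearson r, with no meaning for shared function. Ocln was closest to Calcrl, an adrenomedullin and CGRP receptor (r = 0.996), the first Tjp1 probe to St6gal1, a sialyltransferase (r = 0.997), and the second Tjp1 probe to Matr3, a nuclear matrix protein (r = 0.994). The next most like the first Tjp1 probe were Mpp5, which encodes the tight junction scaffold PALS1 (r = 0.997), and Erbin, a scaffold of basolateral membranes (r = 0.997). Slc2a1 was closest to Tead1, a transcription factor of the Hippo pathway (r = 0.995), and to Abca1, a cholesterol exporter (r = 0.995), and Cdh5 to Mamdc2 (r = 0.989). Such close likeness was common for these genes. Among named genes with a retained probe, an r above 0.9 was reached with 11.5% by the first Tjp1 probe and with 9.94% by Slc2a1. The share was 7.22% for Ocln, 6.81% for the second Tjp1 probe and 5.59% for Cdh5.

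The remaining genes had few like them. Cldn5 reached an r above 0.9 with 38 genes, the closest being Shisa9 (r = 0.980), Ech1, an enzyme of fatty acid oxidation (r = 0.976), and Wdr6 (r = 0.974). Plvap did so with 26 genes, the closest being Pald1 and Tmem88, both at r = 0.941, and the cytoskeletal linker Plec (r = 0.940). Pecam1 did so with 5 genes, led by Foxd4 (r = 0.956), and Mfsd2a with 1 gene, Tdrd9 (r = 0.908).

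Further genes of barrier function were read from lists that hold none of the 8 barrier genes, with 1 probe per gene. Of 40 other tight junction genes, 37 were retained, 0 were called higher and 1 lower, Cldn10, and their median log2 fold change was 0.02. At an unadjusted p under 0.05 there were 4 of the 37, against 6.46% of all probes. Of 13 adherens junction genes all were retained and none was called or had an unadjusted p under 0.05 by limma, with 4 means higher and a median of −0.06, which turned to 0.013 without WT array 2 and was −0.14 without WT array 3. Of 25 barrier transport genes 0 were called by limma and 4 had an unadjusted p under 0.05, with 13 means higher and a median of 0.01. Of 21 retained genes of barrier signalling, which include the Norrin and Wnt pathway of retinal vessels, 0 were called and 0 had an unadjusted p under 0.05, with a median of −0.01. The local pooled error test called 1 gene in the tight junction list and 0 in these other 3 lists. Over the named genes tested, 0.653% had a called probe.

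Cldn10 encodes a claudin known to form paracellular ion channels in epithelia such as the kidney tubule. On the log2 scale its signal was 4.55, 4.90, 4.78 and 4.73 on the WT arrays, all well above background. On the Mrp4-null-labelled arrays it was 2.74, 3.33, 2.74 and 2.95, not well above background on any of them, so only a bound can be given. The means were 2.94 and 4.74, and Cldn10 was at least 2.50-fold lower on the Mrp4-null-labelled arrays (limma adjusted p = 0.00085), taking on each dim array the higher of its own signal and the lowest signal well above background. The probe passed the filter through the WT arrays alone, the group in which it was higher, and was not tested where all 8 arrays had to be well above background, so its call is not independent of the filter. In the order of genes on chromosome 14, Cldn10 was the tested gene next to Abcc4. Of the 20 tested genes nearest to Abcc4, 3 were called, Cldn10 among them. Besides Abcc4, 19 genes were called on chromosome 14, with 558 tested there, against 0.653% of all named genes tested. After normexp background correction, which adds an offset to every signal, the fitted log2 difference was −0.33 in place of −1.80, so the bound holds for the scale used here alone. Cldn10 was not called on that scale or with the Y-linked signal as a covariate.

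The next genes by p did not pass. Cldn2, a claudin of leaky epithelia, gave 4.75, 5.17, 4.59 and 4.50 on the Mrp4-null-labelled arrays and 4.01, 4.17, 3.52 and 3.95 on the WT arrays, a difference of 0.84 (SE 0.18, limma adjusted p = 0.139). Only 2 of the 4 WT arrays measured Cldn2 well above background, so the size of the difference is uncertain, the probe passed the filter through the Mrp4-null-labelled arrays, and after normexp the difference was 0.21. Marveld2, which encodes tricellulin of the contacts where 3 cells meet, differed by 0.63 (SE 0.23, limma adjusted p = 0.579) with overlap. Among transport genes, the insulin receptor gene Insr differed by −0.71 (SE 0.18, limma adjusted p = 0.251) by 1 probe, or −0.28 with the Y-linked signal as a covariate, and by −0.25 (limma adjusted p = 1.00) by the other, Slco1c1, a thyroid hormone carrier of barrier endothelium, by −0.38 (SE 0.11, adjusted p = 0.398), and Cav2, a component of caveolae, by −0.25 (SE 0.08, adjusted p = 0.433). In the adherens junction list the smallest p was that of Ctnna2, at −0.13 (SE 0.08, limma adjusted p = 0.952), and in the signalling list that of Wnt7b, at −0.45 (SE 0.28, limma adjusted p = 0.980).

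**Figure D5:**
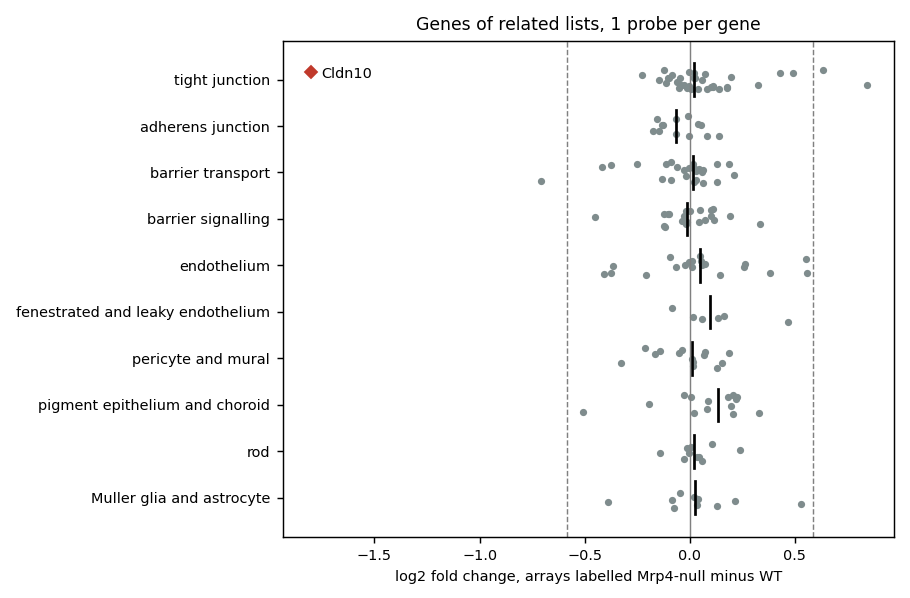
Fitted log2 fold change (horizontal axis, Mrp4-null-labelled arrays minus WT) of each retained gene in 10 of the 14 lists of barrier genes and of cell type markers, 1 probe per gene, without the lens, ciliary epithelium, blood, and leukocyte and microglia lists, whose values are in the text; black bars are the list medians, dashed lines mark 1.5-fold and the red diamond is the 1 gene called in these lists, Cldn10. The medians of the lists shown lie between −0.06 and 0.13, against −1.38 for lens and 0.20 for leukocytes and microglia (0.020 without Mrp4-null array 3), and the fitted value of Cldn10 rests on a probe at background on every Mrp4-null-labelled array.

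Markers of the cell types of the barrier were read next, without a test that each cell type was present. Of 25 endothelial markers, 21 were retained, and the mean of their log2 signals was between 8.13 and 8.52 on the Mrp4-null-labelled arrays and between 8.16 and 8.36 on the WT arrays. None of the 21 was called by limma, 13 means were higher, 4 had an unadjusted p under 0.05, and the median difference was 0.05. Mrp4-null array 3 held the highest list mean, with the other 3 Mrp4-null-labelled arrays between 8.13 and 8.32, and without it the median was −0.0037. Ly6c1, a surface protein of endothelium and some leukocytes, was higher by 0.56 without overlap and did not pass (SE 0.13, limma adjusted p = 0.169). Emcn, endomucin, differed by −0.41 (SE 0.14, limma adjusted p = 0.571), and Kdr, the VEGF receptor of endothelium, by −0.37 (SE 0.14, limma adjusted p = 0.670). With the Y-linked signal as a covariate these were −0.15 and −0.60. Markers of endothelium lay on both sides of 0, as Cldn5 and Pecam1 did.

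Of 8 markers of fenestrated and leaky endothelium, the vessels in which Plvap is abundant, 6 were retained and 0 called by limma, with 1 unadjusted p under 0.05 (Selp, 0.46) and a median of 0.10, which was 0.045 without Mrp4-null array 3 and 0.20 without WT array 3. Their mean log2 signal was between 8.23 and 8.55 on the Mrp4-null-labelled arrays and between 8.13 and 8.53 on the WT arrays. Of 15 pericyte and mural cell markers 14 were retained and 0 called by limma, with 1 unadjusted p under 0.05 (Ndufa4l2, −0.33) and a median of 0.01.

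Slc2a1, Ocln and Tjp1 are also expressed in epithelia next to the retina. Of 15 markers of pigment epithelium and choroid 14 were retained, 0 were called and 0 had an unadjusted p under 0.05 by limma, 11 means were higher, and the mean log2 signal was between 8.40 and 8.66 on the Mrp4-null-labelled arrays and between 8.25 and 8.70 on the WT arrays. Of 10 ciliary epithelium markers 0 were called by limma and 3 had an unadjusted p under 0.05, with a median difference of 0.01 and list means between 8.94 and 9.17 and between 8.76 and 9.03. Of 18 lens markers 15 were retained, 0 were called by limma and 11 by the local pooled error test, 4 had an unadjusted limma p under 0.05, no mean was higher, the median difference was −1.38, and the list mean was 6.45, 6.11, 7.39 and 8.31 on the Mrp4-null-labelled arrays against 8.54, 9.48, 7.22 and 8.02 on the WT arrays. Of 13 blood markers 5 were retained and 0 called by limma, with 1 unadjusted p under 0.05, a median difference of 0.17 and list means between 9.72 and 10.59 and between 9.24 and 10.36. The blood median was 0.031 without Mrp4-null array 3, 0.37 without WT array 1 and −0.43 with the Y-linked signal as a covariate. Of 16 leukocyte and microglia markers 12 were retained and 1 called, Cd52, with a median difference of 0.20 and list means between 8.31 and 9.01 and between 8.12 and 8.32, again highest on Mrp4-null array 3, the other Mrp4-null-labelled arrays being between 8.31 and 8.49. Without that array the leukocyte and microglia median was 0.020. The lists are not exclusive, since Aqp4 stands in both the ciliary epithelium list and the Muller glia and astrocyte list. The part of these tissues in the barrier gene values was not tested. Rods, which make up most cells of the retina, had list means between 16.05 and 16.20 on all 8 arrays with 0 of 10 markers called by limma and 0 at an unadjusted p under 0.05, and Muller glia and astrocytes had list means between 11.62 and 11.87 with 0 of 10 called and 1 at an unadjusted p under 0.05.

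Along the chromosomes of GRCm38.p6, 1 of the 160 tested genes nearest to the 8 barrier genes, 20 around each, was called, a share of 0.625% against 0.653% of all named genes tested. No gene was called on chromosome 16, where Cldn5 lies among 503 tested genes, or on chromosome 11, where Pecam1 lies among 1291. On chromosome 8, with 35 called among 837 tested genes, 19 tested genes lay between Cdh5 and the nearest of them, Kifc3, and 61 between Plvap and Zfp330. On chromosome 4, with 23 called among 1015, 113 tested genes lay between Mfsd2a and the nearest, A930031H19Rik, and 145 between Slc2a1 and the same gene. On chromosome 7, with 3 called among 1288, 288 lay between Tjp1 and Adm. Ocln on chromosome 13, with 2 called among 619, had 8 tested genes between it and the called gene 6430562O15Rik, the 1 called among the 160.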

How the data were processed

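Cy3-labelled cRNA prepared from total RNA of whole retina was hybridized to one-color arrays. The deposited files of the scanner (Agilent Feature Extraction 11.0.1.1, per the submitters' processing notes) give for each spot a processed signal intensity that was background-subtracted by that software and was not normalized between arrays. A deposited value table, used as an alternative, equals the mean processed intensity of each probe within 0.1%, unlogged, with column medians between 60.2 and 86.3.

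After removal of controls (59305 of 62976 spots were kept) and of 78 to 143 outlier spots an array, log2 intensities were averaged for each of 56605 probes. No spot was saturated. Retention required that 1 genotype had at least 3 measured arrays, all well above background, and that the other had at least 2 measured, and 37085 probes met this. They were quantile-normalized, as in the study's methods. Symbols came from RefSeq accessions of GRCm38.p6 and covered 32994 probes (58.3%). In lists, the retained probe with the highest mean stood for its gene. Levels of different probes were not compared.

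The fit used lmFit and eBayes of limma 3.58.1 in R 4.3.3 (with statmod 1.5.0), with genotype as the only term, Benjamini-Hochberg adjustment over all retained probes, and calls at an adjusted p under 0.05 with a 1.5-fold change. It was run on simulated data in which probes varied independently, so that run does not cover the variation shared over the arrays here. The alternatives were the methods' local pooled error test, written for this work and adjusted in the same way, cyclic loess, a 75th percentile shift, normexp with an offset of 50 (on median spot intensities, since the files used here hold no mean), no filter or a filter on all 8 arrays, outlier spots kept, robust variances with an intensity trend, a block for the sample number, no fold minimum, all probes of a gene, and each array left out. Added after seeing the data were fits without Mrp4-null array 2 and WT array 3, with the first factor within genotypes as a covariate, and with the Y-linked signal as a covariate. That first factor was computed from the values under test.

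Genes named were the 8 barrier genes, Abcc4, called genes and the 3 of smallest p in each list, the 3 most like each barrier gene by Pearson r, and the nearest called gene on its chromosome, of which the text gives those that bear on a result. The members and lists were chosen with earlier results of these data known.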

Additional observations from a re-analysis of the deposited data

Results flagged for a closer look

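Of 72 groups of 4 arrays screened, 4 held an array far from the other 3 by Dixon's criterion at 95%, as about 1 in 20 groups does by chance. Mrp4-null array 2 was low for Marveld2, at 8.08 against 8.62 to 8.70 (gap 0.876 of the range), and for Emcn, at 6.79 against 7.24 to 7.30 (0.887). The mean of the pericyte and mural markers was high on Mrp4-null array 3, at 8.84 against 8.54 to 8.59 (0.848). The mean of the rod markers was high on WT array 1, at 16.20 against 16.05 to 16.07 (0.871). None of the 9 barrier gene probes held such an array in either group.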

How the results depend on the processing

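None of the 9 barrier gene probes was called under 13 other settings or with any array left out. With the filter on all 8 arrays, none of the 8 that passed it was called, and Ocln was not tested. The count over all probes, 202, was between 117 and 188 with 1 array left out, lowest without WT array 4, and 128 without Mrp4-null array 2 and WT array 3. It was 305 with the first factor within genotypes as a covariate and 35 with the Y-linked signal. With the sample number as a replicate block it was 71, and that number is also the slide column of each array. Deviations of same-numbered arrays correlated at −0.29, −0.69, 0.03 and 0.41, which cannot decide whether the numbers pair the samples. Cldn10 and Cd52 were the 2 genes called in the lists, with any array left out as well. The number was 1 after normexp correction, 1 with the filter on all 8 arrays, 1 with the Y-linked signal, 3 with the first factor as a covariate, and 13 by the local pooled error test, of which 11 were lens genes. For Cldn10, which that filter leaves out and for which only a bound can be given, the limma adjusted p was 0.0617 after normexp, where the fitted difference was −0.33 in place of −1.80, and 0.105 with the Y-linked signal. Slc2a1 turned to 0.025 without Mrp4-null array 2 and WT array 3 and to 0.14 with the Y-linked signal, and the first Tjp1 probe to 0.024 without both arrays. With 1 array left out, Ocln ranged from −0.10 to 0.58, Slc2a1 from −0.13 to 0.10, the Tjp1 probes from −0.41 to 0.22 and from −0.18 to 0.040, and Cdh5 from −0.53 to −0.03. Ocln was 0.96 with the Y-linked signal and 0.065 after normexp, and Cdh5 −0.15 after normexp, −0.13 without both arrays and −0.22 with the Y-linked signal. With the first factor as a covariate, unadjusted limma p was 0.0097 for Cdh5 (adjusted 0.206), 0.0281 for the first Tjp1 probe (0.310) and 0.0129 for Cldn5 (0.234). This factor came from the same values, so the SE of a probe that follows it falls while its difference stays. The SE of the first Tjp1 probe went from 0.42 to 0.066, so these p-values are not independent support for a difference. Pairs of barrier genes with an r above 0.8 numbered 3 without both arrays. With 1 array left out, the median turned sign in 8 of the 14 lists, those of adherens junction, barrier signalling, barrier transport, endothelium, ciliary epithelium, pericyte and mural, rod, and Muller glia and astrocyte genes. With the Y-linked signal the medians of pigment epithelium and choroid, pericyte and mural, and rod markers were −0.14, 0.12 and −0.040, in place of 0.13, 0.012 and 0.019. Every value with the Y-linked signal as a covariate rests, on the WT side, mainly on WT array 1. The causes were not tested. The Ocln probe was not well above background on 1 array.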
